A study of Mus musculus with 8 samples.

Results

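The genes described here form the G1 gate of the cell cycle: the D cyclins Ccnd1, Ccnd2 and Ccnd3, their kinase partners Cdk4 and Cdk6, the CIP/KIP inhibitors Cdkn1a, Cdkn1b and Cdkn1c, and the INK4 inhibitors Cdkn2a and Cdkn2b. They were chosen by symbol, and all 10 were present among the 19129 genes analysed. Total RNA had been sequenced from pancreatic tumours of 8 mice, taken fresh from isografts, that is, from tumour material transplanted between genetically alike mice. The libraries of 4 mice are labelled control, and those of the other 4 are labelled MEKi after 7 days on trametinib, which blocks MEK1 and MEK2, the kinases upstream of ERK. The strain, age and sex of the mice, the driver alleles of the grafted tumour and the agent or vehicle of the control mice stay unnamed (not given in the sources used here). Nothing states whether all grafts came from a single tumour line, so the p-values below measure the spread between these 8 tumours.

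D cyclins bind CDK4 and CDK6, and the complexes phosphorylate the retinoblastoma protein RB, which then releases E2F transcription factors that switch on genes of DNA replication. INK4 proteins bind CDK4 and CDK6 directly, whereas CIP/KIP proteins bind cyclin and kinase together, and the loss of INK4 genes is a frequent event in pancreatic cancer. Growth factor signalling through RAS and ERK raises transcription of Ccnd1, which makes this gene a usual readout of MEK inhibition. Cdkn2a encodes p16Ink4a and, through another first exon and reading frame, p19Arf, which stabilises p53, the factor that drives Cdkn1a.

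None of these 10 genes was called different between the labels. Limma on the variance-stabilised log2 values called 0 of 10 after adjustment over all genes, beside 0.00523% of the 19129 genes, which is 1 gene (9530002B09Rik, lower under the MEKi label). At an unadjusted p under 0.05 the fit had 0 of the 10, beside 1.77% of all genes, and the groups overlapped for every one of the 10, whereas they did not overlap for 1.27% of all genes. Means were lower under the MEKi label for 6 of the 10 and higher for 4, with a median difference of -0.04 beside 0.01 for all genes. What stood out was a single tumour: in the library MEKi 4 the values of Cdk6, Cdkn2a and Cdkn2b lay far below those of the other 7 libraries.

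**Figure D1:**
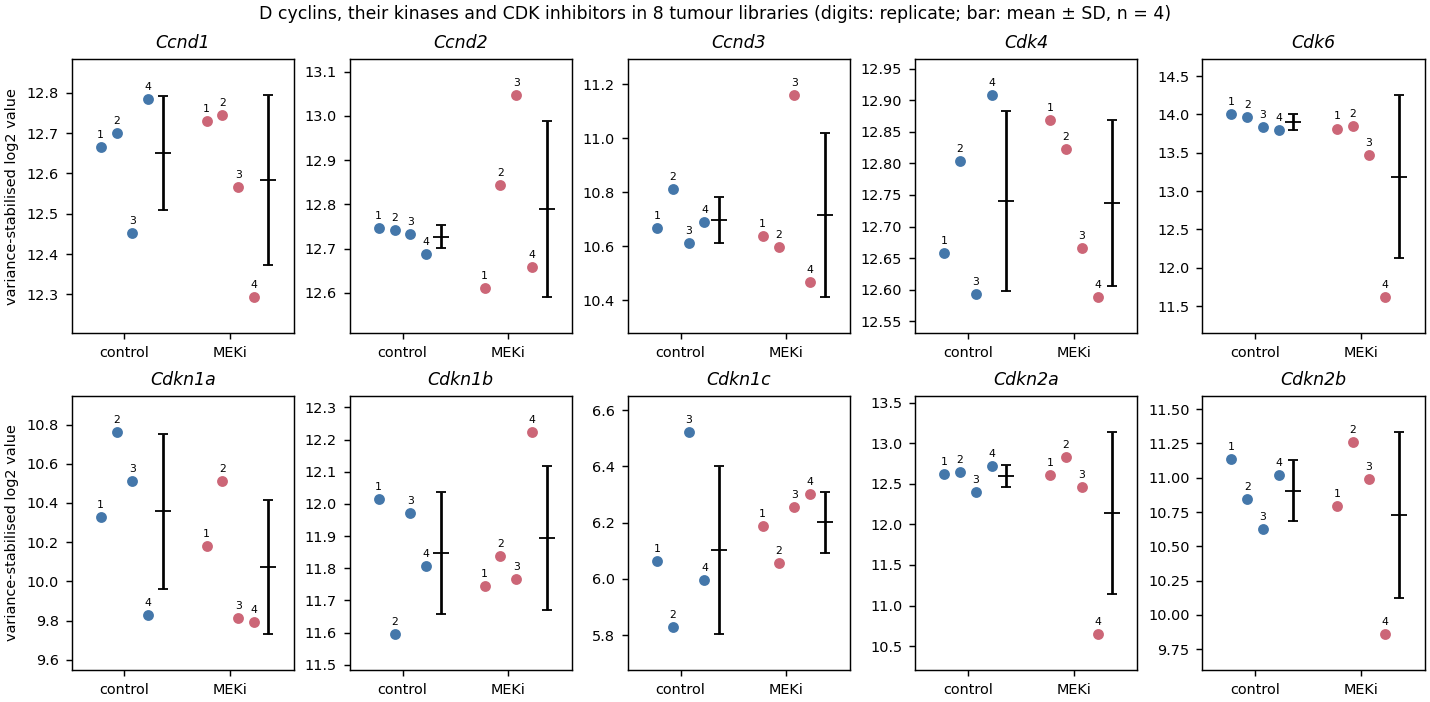
Variance-stabilised log2 value (y axis, a separate range in each panel) of the 10 genes in the 4 control and 4 MEKi libraries; points are libraries, digits are replicate numbers and bars are mean ± SD. The groups overlap in every panel, and MEKi 4 lies far below the other libraries for Cdk6 (11.62), Cdkn2a (10.65) and Cdkn2b (9.86).

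The libraries held between 20090101 and 38569550 reads in genes, MEKi 4 being the deepest. The ERK target Dusp6, which encodes a phosphatase of ERK, did not follow the label. It was high in control 1, control 2, MEKi 2, MEKi 3 and MEKi 4 and low in control 3, control 4 and MEKi 1. Its difference, MEKi minus control, was 0.33 (SE 0.90, interval -1.70 to 2.36, limma unadjusted p = 0.72). Directions below therefore refer to libraries labelled MEKi and not to shown inhibition. Ductal or tumour epithelial markers were present in every library (14 of 14 measured, none at 0), with summed normalised reads of 217941 to 225993 in the control libraries and 168800 to 236098 in the MEKi libraries. The lowest of these sums was that of MEKi 4, where 8 of the 14 genes were below all other libraries. Acinar markers (13 of 14 measured, Ptf1a not among the genes analysed) summed to 4753 to 3215890 in the control and 313 to 54747 in the MEKi libraries, with Amy2a5, Amy2b and Rbpjl at 0 in some libraries. In bulk tumour RNA, fewer cells of a type and less RNA per cell cannot be told apart.

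Promoter sequences are shown for Cdk6, Cdkn2a, Cdkn2b and Cdkn1a, the genes with the widest range over the 8 libraries, and for Cdk4, the one with the narrowest, taken from the RefSeq promoters (GRCm38.p6), in which 7 of the 10 genes had an entry. Motifs were searched on both strands in the 250 bases before each annotated start. The sequences run 5′ to 3′ along the gene's strand and end before the first base that GENCODE places in an exon of the gene. Capitals mark matches to CACGTG (the E-box bound by MYC and MAX) in Cdk4 and Cdk6, to CATG, 6 bases of any kind and CATG again (a paired motif of the p53 type) in Cdkn1a, to TGACGTCA (the cAMP response element) in Cdkn2b and to GGGCGG (the GC box of SP1-like factors) in Cdkn2a.
Cdk4, chr10:127063285-127063533, plus strand: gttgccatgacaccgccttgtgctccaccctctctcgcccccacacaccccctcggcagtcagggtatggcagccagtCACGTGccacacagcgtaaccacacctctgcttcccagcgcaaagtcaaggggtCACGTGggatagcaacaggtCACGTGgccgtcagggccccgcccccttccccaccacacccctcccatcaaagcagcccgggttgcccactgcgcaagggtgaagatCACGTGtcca
Cdk6, chr5:3343643-3343731, plus strand: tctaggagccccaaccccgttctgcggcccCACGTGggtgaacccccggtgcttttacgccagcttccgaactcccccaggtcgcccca
Cdkn1a upstream start, chr17:29090729-29090975, plus strand: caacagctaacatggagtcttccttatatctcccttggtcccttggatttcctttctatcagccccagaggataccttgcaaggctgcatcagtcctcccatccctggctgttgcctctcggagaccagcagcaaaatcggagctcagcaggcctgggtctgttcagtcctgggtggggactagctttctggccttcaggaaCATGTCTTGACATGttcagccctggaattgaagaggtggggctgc
Cdkn1a downstream start, chr17:29093519-29093768, plus strand: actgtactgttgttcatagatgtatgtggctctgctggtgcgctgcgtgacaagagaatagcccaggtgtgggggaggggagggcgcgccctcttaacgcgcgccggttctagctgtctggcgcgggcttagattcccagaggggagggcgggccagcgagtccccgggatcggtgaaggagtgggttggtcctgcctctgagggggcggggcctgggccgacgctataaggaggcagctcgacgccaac
Cdkn2b, chr4:89311040-89311282, minus strand: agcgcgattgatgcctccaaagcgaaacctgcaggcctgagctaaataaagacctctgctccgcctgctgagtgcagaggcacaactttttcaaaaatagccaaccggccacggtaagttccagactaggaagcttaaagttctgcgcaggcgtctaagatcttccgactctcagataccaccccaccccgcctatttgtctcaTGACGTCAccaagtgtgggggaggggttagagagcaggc
Cdkn2a upstream start, chr4:89294654-89294869, minus strand: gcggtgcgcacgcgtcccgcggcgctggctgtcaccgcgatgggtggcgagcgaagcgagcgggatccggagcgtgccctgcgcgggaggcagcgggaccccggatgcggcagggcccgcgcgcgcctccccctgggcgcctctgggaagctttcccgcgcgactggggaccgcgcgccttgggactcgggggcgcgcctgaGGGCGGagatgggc
Cdkn2a downstream start, chr4:89282193-89282442, minus strand: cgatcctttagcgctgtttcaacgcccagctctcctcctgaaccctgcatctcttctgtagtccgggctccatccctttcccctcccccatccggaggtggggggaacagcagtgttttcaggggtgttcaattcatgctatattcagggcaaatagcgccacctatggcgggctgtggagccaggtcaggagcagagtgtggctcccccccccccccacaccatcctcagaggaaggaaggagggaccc
The Cdk4 window held 4 E-boxes, the nearest 11 bases before the start, and the Cdk6 window held 1, at 220 bases before the start. At least 1 E-box was found in 6.02% of all 32851 promoter windows of this length. The paired motif lay 48 bases before the upstream Cdkn1a start and was not in the window of the downstream start, which held 2 GC boxes, and 0.490% of the windows held it. The cAMP response element lay 46 bases before the Cdkn2b start and was found in 1.55% of the windows. GC boxes, found in 32.7% of the windows, numbered 2 in the upstream Cdkn2a window, of which 1 lies beyond the stretch shown, and 0 in the downstream window. The upstream Cdkn2a window also held 1 match to TTTCCCGC, an E2F motif found in 0.895% of the windows and not capitalised above. The upstream Cdkn2a start opens the transcript of p19Arf and the downstream start that of p16Ink4a. The deposited values give 1 number for the gene, so reads of these transcripts could not be separated. The Cdk4 window also held 1 GC box, not capitalised above. AP-1 (TGANTCA, N being any base), ETS (CCGGAAGT) and TTTGGCGC, another E2F motif, were also searched. The windows of these 5 genes held no match to them, beside 6.75%, 2.88% and 0.417% of all windows. A match describes these letters and shows no binding.

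Among the D cyclins, Ccnd1 (chromosome 7, 144929931 to 144939925, GRCm38) had log2 values of 12.67, 12.70, 12.45 and 12.79 in control 1 to 4 and of 12.73, 12.75, 12.57 and 12.29 in MEKi 1 to 4. MEKi 4 and control 3 were the lowest, and the remaining 6 libraries of both labels lay together. The difference, MEKi minus control, was -0.07 (SE 0.12, 95% interval -0.35 to 0.21, limma adjusted p = 1). Without MEKi 4 it was 0.03. Ccnd1 therefore gave no label difference past the spread between tumours, and a mean shift beyond 0.35 downwards lay outside the interval.

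Ccnd2, the D cyclin most linked to lymphoid, ovarian and beta cell growth (chromosome 6, 127125162 to 127152193), had values of 12.75, 12.74, 12.73 and 12.69 in the control and of 12.61, 12.84, 13.05 and 12.66 in the MEKi libraries. The control libraries were nearly alike (SD 0.03, n = 4), and the MEKi libraries lay on both sides of them (SD 0.20, n = 4). The difference was 0.06 (SE 0.11, interval -0.18 to 0.31), and -0.02 without MEKi 3.

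Ccnd3, the D cyclin prominent in blood cells (chromosome 17, 47505051 to 47599691), had values of 10.67, 10.81, 10.61 and 10.69 in the control and of 10.64, 10.60, 11.16 and 10.47 in the MEKi libraries. MEKi 3 was the highest and MEKi 4 the lowest, with the control libraries between. The difference was 0.02 (SE 0.15, interval -0.31 to 0.35). Without MEKi 3 it was -0.13. The 3 genes whose pattern over the 8 libraries was most like that of Ccnd3 were Cd86, Plbd1 and Ccdc88b (Pearson r 0.98, 0.97 and 0.96, as a description), all high in MEKi 3. Cd86 encodes a costimulatory protein of antigen-presenting cells. B cell markers (7 of 7 measured, none at 0) had a mean value of 8.13 in MEKi 3 and of 6.10 to 7.09 in the other libraries, and summed to 143 to 552 normalised reads in the control and 184 to 1626 in the MEKi libraries. Neutrophil markers (7 of 8 measured, Ly6g not among the genes analysed) had a mean of 9.93 in MEKi 3 and of 8.00 to 9.52 elsewhere, with sums of 6561 to 8023 and 2099 to 10972. Macrophage and T cell markers did not peak in MEKi 3. Macrophage markers had a mean of 11.02 there and their highest mean, 11.65, in control 2. T cell markers had a mean of 8.99 there and their highest mean, 9.45, in control 4. The part of these cell types in the Ccnd3 values was not tested.

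Cdk4 (chromosome 10, 127063534 to 127067920) varied least of the 10 genes, over a range of 0.32. Its values were 12.66, 12.80, 12.59 and 12.91 in the control and 12.87, 12.82, 12.67 and 12.59 in the MEKi libraries. The groups overlapped throughout, with a difference of -0.0035 (SE 0.11, interval -0.24 to 0.24).

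Cdk6, the other kinase partner (chromosome 5, 3341485 to 3531008), had values of 14.00, 13.97, 13.83 and 13.80 in the control libraries. Values were 13.82, 13.85 and 13.47 in MEKi 1 to 3 and 11.62 in MEKi 4. MEKi 1 and MEKi 2 lay among the controls, MEKi 3 was below all of them and MEKi 4 stood far apart. The difference of -0.71 (SE 0.43, interval -1.68 to 0.25, limma adjusted p = 1, unadjusted p = 0.13) shrank to -0.19 without MEKi 4 and to -0.07 without MEKi 3 and MEKi 4. Depth does not limit this value, since MEKi 4 gave 4821 reads on Cdk6 at the greatest depth and the other libraries 10583 to 18591. Normalised for depth, Cdk6 in MEKi 4 was at 0.212 times the median of the other 7 libraries, and in MEKi 3 at 0.775 times.

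Cdkn1a, which encodes the CIP/KIP inhibitor p21 (chromosome 17, 29090976 to 29100727; its paired motif is printed above), had values of 10.33, 10.76, 10.51 and 9.83 in the control and of 10.18, 10.51, 9.81 and 9.79 in the MEKi libraries. Low values were found under both labels, in control 4, MEKi 3 and MEKi 4. The difference was -0.28 (SE 0.22, interval -0.78 to 0.21). Single libraries moved it: the difference was -0.46 without control 4 (limma unadjusted p = 0.0442, adjusted p = 1), -0.43 without MEKi 2, -0.15 without control 2, -0.20 without MEKi 3 and -0.19 without MEKi 4. With the acinar marker mean as a covariate it was -0.07.

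Cdkn1b, which encodes p27, the inhibitor that accumulates in resting cells (chromosome 6, 134920401 to 134925513), had values of 12.02, 11.60, 11.97 and 11.81 in the control and of 11.75, 11.84, 11.77 and 12.22 in the MEKi libraries. It was the only one of the 10 genes with its highest value in MEKi 4. The difference was 0.05 (SE 0.14, interval -0.26 to 0.35), and -0.06 without that library. Cdkn1c, the imprinted gene of p57 (chromosome 7, 143458339 to 143461050), was barely detected, with 10 to 39 reads per library. Its values lay between 5.83 and 6.52, near the floor of 5.12 that stands for 0 reads, and its difference of 0.10 (SE 0.16, interval -0.25 to 0.45) rests on so few reads that small changes were not detectable. The difference was 0.0068 without control 2, 0.24 without control 3 and 0.44 by voom on the recovered reads.

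Cdkn2a (chromosome 4, 89274471 to 89294653) had values of 12.63, 12.65, 12.40 and 12.72 in the control libraries. Values were 12.61, 12.83 and 12.45 in MEKi 1 to 3 and 10.65 in MEKi 4. The first 3 MEKi libraries lay within or just above the control range, and MEKi 4 was at 0.247 times the median of the other 7 libraries in normalised reads. The difference was -0.46 (SE 0.41, interval -1.37 to 0.45), and 0.03 without MEKi 4. Cdkn2b, which encodes p15Ink4b and lies beside it (89306299 to 89311039), had values of 11.14, 10.84, 10.63 and 11.02 in the control and of 10.79, 11.26, 10.99 and 9.86 in the MEKi libraries. Its difference was -0.18 (SE 0.27, interval -0.78 to 0.42), and 0.11 without MEKi 4.

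Over the 10 genes, 7 had their lowest value in MEKi 4, as did 21.6% of all genes. The range over the 8 libraries was under 1 for 7 of the 10 and for 81.0% of all genes, and the median range was 0.69 beside 0.62. Without MEKi 4 the range of Cdk6 narrowed from 2.38 to 0.54, that of Cdkn2a from 2.17 to 0.42 and that of Cdkn2b from 1.40 to 0.63. For Ccnd1 it went from 0.49 to 0.33.

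Levels of different genes were compared as normalised reads per kilobase of exon, with all annotated exons of a gene merged. The merged lengths ran from 1172 bases for Cdkn2a to 13989 for Cdk6. Where a tumour uses only some of the annotated exons, this scale understates the gene. The order below and the family shares therefore depend on the annotation. Cdkn2a was the most abundant of the 10 on this scale, at a mean of 4811 over the 8 libraries, higher than 98.9% of the 18323 genes with a length. Cdk4 followed at 2089, Ccnd1 at 1327, Cdkn2b at 1294, Cdk6 at 933, Cdkn1b at 814, Ccnd2 at 732, Cdkn1a at 326 and Ccnd3 at 184. Cdkn1c was last at 9.6, higher than 16.6% of genes. Neighbours in this order did not overlap between Cdk4 and Ccnd1, between Ccnd2 and Cdkn1a and between Ccnd3 and Cdkn1c, and overlapped elsewhere. Ccnd1 exceeded Cdkn2b in 5 of 8 libraries and Cdkn1b exceeded Ccnd2 in 6 of 8, so neither order was clear. Cdkn2a was above Cdk4 in 7 of 8 libraries, the exception being MEKi 4 (1316 against 1874).

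**Figure D2:**
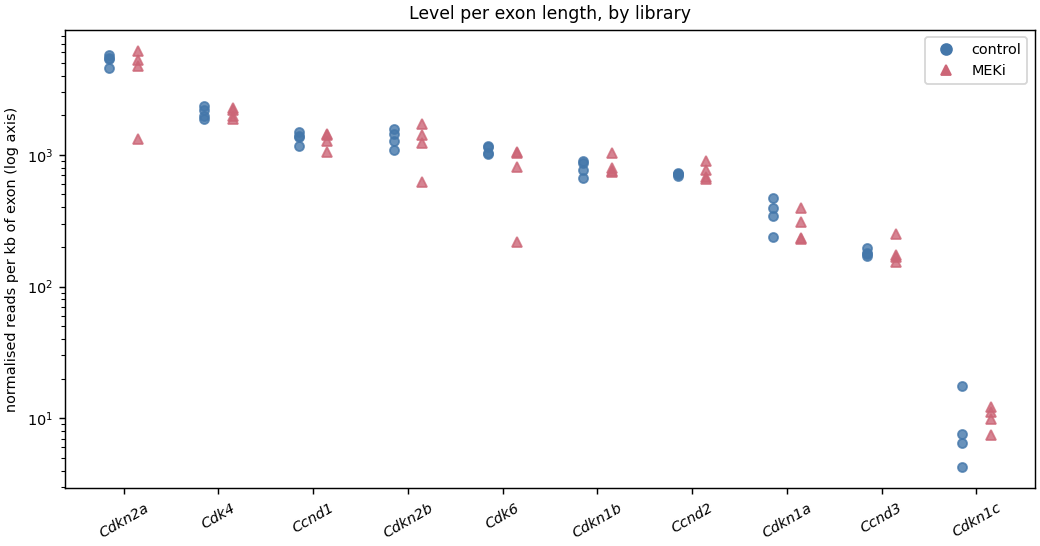
Normalised reads per kilobase of merged exons (y axis, log scale) for the 10 genes, ordered by their mean; each point is 1 library. The span from Cdkn2a to Cdkn1c covers means of 4811 to 9.6, and the isolated low MEKi points of Cdkn2a (1316), Cdkn2b (621) and Cdk6 (220) belong to MEKi 4.

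On the per-kilobase scale Ccnd1 made up 52.7% to 63.2% of D cyclin reads in a library, Ccnd2 29.1% to 36.9% and Ccnd3 7.06% to 10.4%. The lowest Ccnd1 share was that of MEKi 3, where both other cyclins were at their highest. Of the reads of both kinases, Cdk6 gave 28.9% to 37.2% in 7 libraries and 10.5% in MEKi 4, where Cdk4 was at 1874 per kilobase. The ratio of Cdk6 to Cdk4 was 0.117 in MEKi 4 and 0.406 to 0.594 in the others. The ratio of Cdkn2a to Cdkn2b was 2.12 in MEKi 4 and 3.35 to 4.31 in the others, so that within this gene pair the low value of MEKi 4 was deeper for Cdkn2a.

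Genes after Cdk6 on the chromosome shared its low values in MEKi 4 and MEKi 3. These neighbours were examined after the low Cdk6 values had been seen, so they are described without a test. They are given as the log2 value minus the median of the 8 libraries, for genes with a mean of at least 50 normalised reads. All 18 such genes that start within 2.5 Mb after the Cdk6 start, from Fam133b to Steap1, were below that median in both libraries. The median deviation was -1.19 in MEKi 4 (from -2.51 to -0.58) and -0.72 in MEKi 3 (from -1.09 to -0.20), and between -0.02 and 0.20 in each of the other 6 libraries. MEKi 3 and MEKi 4 were both below all 4 control libraries for 18 of 18 genes and were the lowest 2 of the 8 libraries for 17 of 18, as they were for 7.79% of the 13194 genes at this level.

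Cyp51, an enzyme gene of cholesterol synthesis, was at 13.07, 13.37, 13.00 and 13.09 in the control and at 13.39, 12.88, 12.06 and 10.53 in the MEKi libraries. MEKi 1 and MEKi 2 stayed close to the controls. Cdk14, another cyclin-dependent kinase gene of this stretch, was at 11.72 to 12.05 in 6 libraries, at 11.05 in MEKi 3 and at 10.80 in MEKi 4.

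Before Cdk6, the only gene found at this level was Gm15772, a processed pseudogene 0.105 Mb away with values of 7.54 to 8.21. It deviated by 0.13 in MEKi 3 and by -0.18 in MEKi 4. A single pseudogene does not show where the low values begin. Beyond Steap1, Steap4 at 4.62 Mb was low in both libraries (7.61 in MEKi 3 and 7.70 in MEKi 4), whereas Sri at 4.70 Mb lay between 11.82 and 11.93 in all 8 libraries. The 10 genes from Sri to 6 Mb had a median deviation of 0.14 in MEKi 3 and 0.08 in MEKi 4. Across the genome, 13061 gene-centred windows of 2.5 Mb to each side held at least 5 genes. A window median at or below -0.5 occurred in 0.214% of them in MEKi 4 (28 windows) and in 0.199% in MEKi 3 (26 windows), and 19 of each were windows of Cdk6 and the 18 genes after it. Such windows numbered 0 to 6 in each of the other 6 libraries. Windows of nearby genes overlap, so the 19 describe a single stretch and not separate places. Deeper window medians occurred elsewhere: the lowest was -2.59 in MEKi 3, where the Cdk6 window was at -0.71, and -1.49 in control 4.

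**Figure D3:**
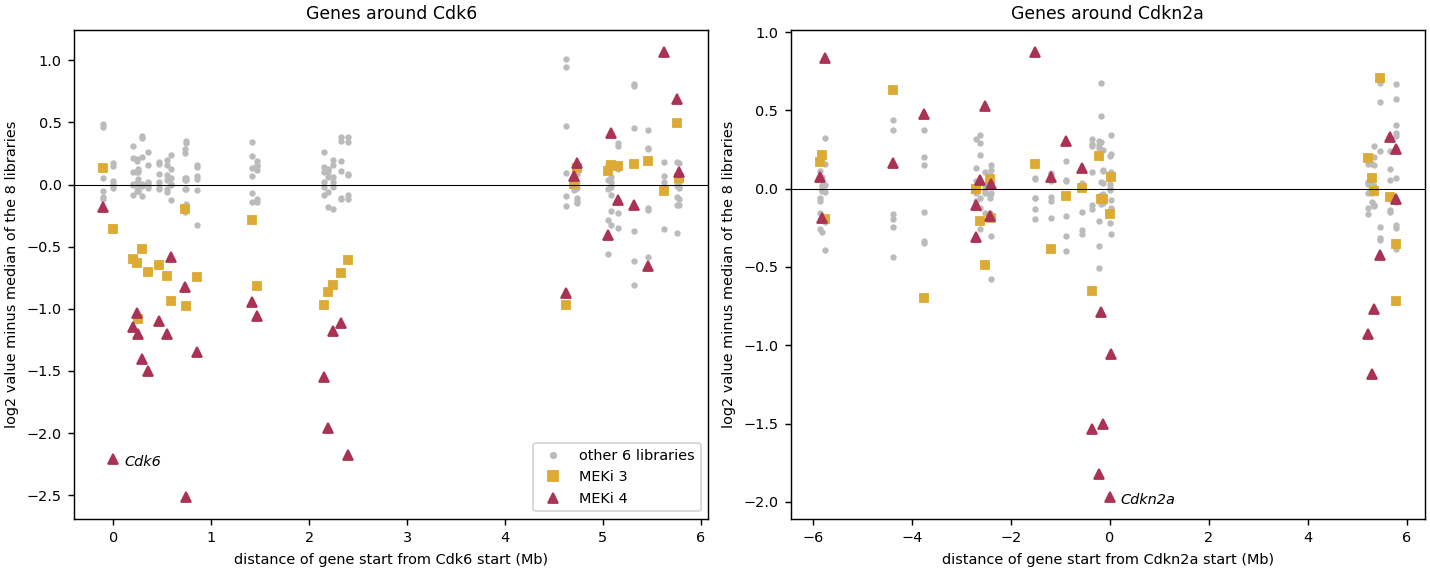
Log2 value minus the median of the 8 libraries (y axis) for genes around Cdk6 (left) and Cdkn2a (right), by the distance of the gene start in Mb (x axis); squares are MEKi 3, triangles MEKi 4 and grey points the other 6 libraries. MEKi 3 and MEKi 4 lie below 0 for all 18 genes within 2.5 Mb after Cdk6, with medians of -0.72 and -1.19, and MEKi 4 is the lowest library at Cdkn2a (-1.97) and at Mtap (-1.50).

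Around Cdkn2a the lowest values of the nearest genes were those of MEKi 4. Mtap, a gene of methionine salvage that is often lost together with CDKN2A in human cancers, was at 12.34, 12.28, 12.41 and 12.62 in the control and at 12.49, 12.48, 12.30 and 10.87 in the MEKi libraries. In MEKi 4 the deviation from the median was -1.50 for Mtap, -0.78 for the gene model Gm12602, -1.82 for the RNA gene Wincr1, -1.54 for the row named Mir31 and -1.05 for Cdkn2b. These genes span from 0.364 Mb before Cdkn2a to 0.032 Mb after it. Klhl9 at 0.556 Mb before it deviated by 0.13 and Hacd4, farther out, by 0.31. MEKi 3 deviated by -0.07 at Mtap, -0.16 at Cdkn2a, 0.07 at Cdkn2b and -0.65 at Mir31, and control 4 by -0.50 at Wincr1. With all 11 genes within 2.5 Mb the median in MEKi 4 was -0.17. It was -1.05 within 1 Mb and 0.03 within 5 Mb, and the genes that the wider windows add all lie before Cdkn2a. On the other side, the next gene at this level after Cdkn2b is Caap1, at 5.23 Mb. Caap1, Plaa and Ift74 were low in MEKi 4, by -0.93, -1.19 and -0.77. With no gene measured between, the extent of the low values on this side is not shown. Around the other 7 genes, the medians of MEKi 4 lay between -0.10 and 0.01 within 2.5 Mb and between -0.21 (Cdkn1c) and 0.04 within 1 Mb. No DNA was measured.

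The epithelial marker sum of MEKi 4 (168800, against 217941 to 225993 in the control libraries) was the lowest of the 8, as were its Cdk6 and Cdkn2a values. In control 3 the epithelial markers had their highest mean value (12.87), while Cdkn2a was at 12.40, its lowest outside MEKi 4. The part of the epithelial markers in the Cdk6 and Cdkn2a values was not tested. Within that list Epcam was at 10.70 in MEKi 4 and between 12.66 and 13.10 elsewhere, whereas Krt8 was at 15.03 and between 15.11 and 15.44 elsewhere. The 3 genes with the pattern most like Cdk6 were Hnrnpab, Cldn4 and Dkc1 (Pearson r 0.99 each), and for Cdkn2a they were Smyd2, Mmp7 and Trappc1 (Pearson r 0.99 each). These likenesses over 8 libraries are descriptions and share the low value of MEKi 4.

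Among the 45 pairs of these 10 genes, Ccnd1 varied with Cdk4 and with Cdkn2a. Across the 8 libraries Ccnd1 and Cdk4 had a Pearson r of 0.88 (two-sided exact permutation p = 0.000918, adjusted over 45 pairs 0.0206) and a Spearman rho of 0.95 (exact permutation p = 0.00114, adjusted 0.0513). Ccnd1 and Cdkn2a had an r of 0.87 (exact permutation p = 0.000496, adjusted 0.0206) and a rho of 0.90 (exact permutation p = 0.00456, adjusted 0.103). Without control 3 and MEKi 4, the 2 libraries farthest from the Ccnd1 median, r was 0.88 for Cdk4 and 0.84 for Cdkn2a. Cdk6 and Cdkn2a had an r of 0.98 that was 0.01 without MEKi 3 and MEKi 4 (exact permutation p with all libraries 0.0231, adjusted 0.191), so this relation rests on those libraries. Both relations of Ccnd1 pass the adjusted threshold by r and not by rho. How often other gene pairs reach such an r in these libraries was not determined, and genes outside the 10 followed Ccnd1 more closely. The genes most like Ccnd1 over all libraries were Med4, a Mediator subunit gene, the gene model Gm8186 and the ribosomal protein gene Rpl35a (Pearson r 0.98, 0.97 and 0.97). For Cdk4 they were the mitochondrial ribosome gene Mrpl10, Tmem256 and Babam1 (Pearson r 0.97, 0.96 and 0.95).

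**Figure D4:**
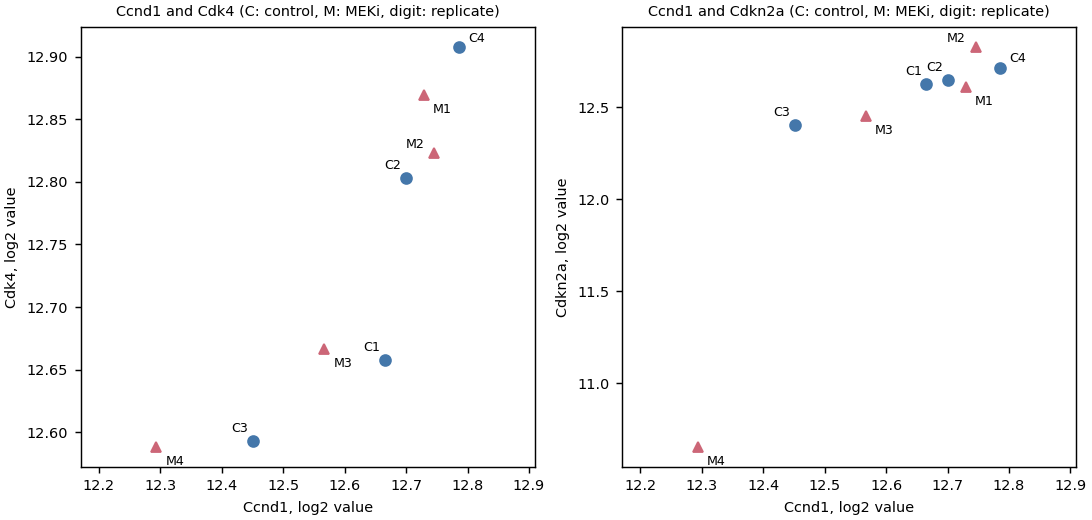
Log2 value of Cdk4 (left, y axis) and Cdkn2a (right, y axis) against that of Ccnd1 (x axis) in each library; circles are control, triangles MEKi. Cdk4 is spread along the whole range of Ccnd1 (r 0.88), whereas for Cdkn2a the library MEKi 4 lies at 10.65 and the other 7 between 12.40 and 12.83.

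Dusp6 stood at 12.19, 12.14, 9.31 and 9.24 in the control and at 8.88, 12.12, 12.20 and 11.01 in the MEKi libraries. Its values fell into separate clusters, 3 libraries between 8.88 and 9.31 and 5 between 11.01 and 12.20, each of under 6 libraries, so no correlation of the 10 genes with Dusp6 is given. Side by side, Ccnd1 was at 12.45, 12.79 and 12.73 where Dusp6 was at 9.31, 9.24 and 8.88 (control 3, control 4 and MEKi 1). It was at 12.67, 12.70, 12.75 and 12.57 where Dusp6 was between 12.12 and 12.20 (control 1, control 2, MEKi 2 and MEKi 3). In MEKi 4, with Dusp6 at 11.01, it was at 12.29. The highest Ccnd1 value belonged to control 4, a library with low Dusp6. Over the same libraries Dusp6 itself spanned 3.31 on the log2 scale and Ccnd1 0.49. The patterns most like Dusp6 were those of Egr1, Gcnt3 and Errfi1 (Pearson r 0.997, 0.993 and 0.991), of which Egr1 and Errfi1 are known ERK targets.

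**Figure D5:**
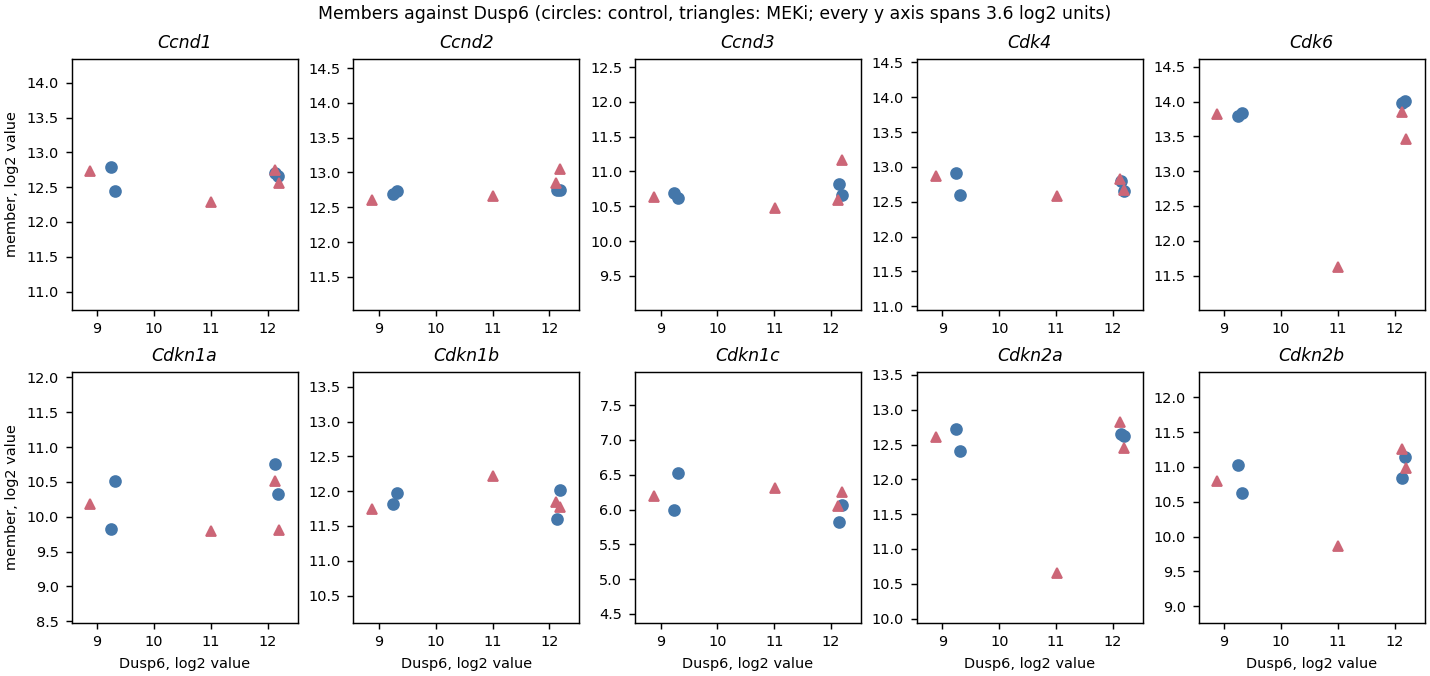
Log2 value of each of the 10 genes (y axis, every panel spanning the same number of log2 units) against that of Dusp6 (x axis); circles are control and triangles MEKi libraries. Ccnd1, Ccnd2 and Cdk4 stay nearly level while Dusp6 ranges from 8.88 to 12.20, and the low triangle at a Dusp6 value of 11.01 in the Cdk6, Cdkn2a and Cdkn2b panels is MEKi 4.

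Downstream and beside these genes, the other lists of the G1 gate were also without a call. Of 13 RB pocket protein and E2F factor genes, limma called 0, with 9 higher and 4 lower means and a median difference of 0.06. Rb1, the target of the D cyclin kinases, was at 9.43 to 9.54 in the control libraries. It was at 9.40, 9.53, 9.88 and 10.04 in the MEKi libraries, where MEKi 3 and MEKi 4 were above all controls. E2f6, a repressor E2F and the gene of this list with the smallest p, was at 9.69 ± 0.10 (SD, n = 4) in the control and 9.87 ± 0.16 (SD, n = 4) in the MEKi libraries (difference 0.19, limma adjusted p = 1). Of 19 further G1 and S phase cyclins, kinases and regulators, limma called 0, with 10 higher and 9 lower means (median 0.01). Skp2, which directs the destruction of p27 and had the smallest p, was at 9.63 ± 0.08 and 9.50 ± 0.19 (SD, n = 4 each; difference -0.13, SE 0.12).

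Replication genes driven by E2F had lower means under the MEKi label for 24 of 24 genes, as 48.4% of all genes had, but limma called 0 of them and the median difference was -0.15. The list mean in a library was 10.22, 10.33, 10.30 and 10.52 in the control and 10.60, 10.18, 10.18 and 9.80 in the MEKi libraries. MEKi 1 had the highest list mean of all 8 and MEKi 4 the lowest, and MEKi 4 was below all other libraries for 21 of the 24 genes. Without MEKi 4 the median difference was -0.03 and 15 of 24 means were lower. Fen1, a flap endonuclease gene and the gene with the smallest p, had a difference of -0.38 (6.74 ± 0.09 against 6.36 ± 0.33, SD, n = 4; SE 0.17, limma unadjusted p = 0.048, adjusted p = 1).

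Of 18 mitosis genes, limma called 0, with 13 higher means and a median of 0.02. Mki67, which encodes the proliferation antigen Ki-67, was at 12.33 ± 0.29 and 12.58 ± 0.25 (SD, n = 4 each; difference 0.25, SE 0.17). Of 21 p53 target genes, limma called 0 (10 higher, 11 lower, median -0.01). Plk2, the p53-induced kinase gene with the smallest p among them, had a difference of -0.29 (10.35 against 10.06, SE 0.17). Of 34 transcription factors and chromatin regulators that act on the 10 genes, limma called 0 (22 higher, 12 lower, median 0.05), and Fosl2, an AP-1 subunit gene, had the smallest p (difference -0.17, SE 0.10). Bmi1, a Polycomb repressor of the Cdkn2a locus named here after its values were seen, was at 11.83 in MEKi 4 and at 10.63 to 11.04 in the other 7 libraries. The Polycomb genes of this list did not share a direction in MEKi 4. Ring1 (9.60) and Rnf2 (10.74) were also highest there, whereas Ezh2 (10.61) and Eed (10.33) were lowest there. Suz12, Cbx7 and Cbx8 lay within the range of the other libraries. The part of these genes in the Cdkn2a values was not tested. Of 17 ERK output genes, limma called 0 (13 higher, 4 lower, median 0.13), and Epha4 had the smallest p (9.34 against 9.74, difference 0.39, SE 0.23).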

How the data were processed

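Total RNA libraries from 8 pancreatic tumour isografts, 4 labelled control and 4 MEKi, were grouped by title. The build GRCm38, the aligner STAR (2.5.3a) and DESeq2 (1.18.1) were used, per the submitters' processing notes. Annotation, counting and filter: not given in the sources used here. Reads shared with near-identical or overlapping genes are therefore uncertain. The deposited values are variance-stabilised log2 values, made by the authors. This scale draws genes with few reads together and understates their differences. Inverting it gave reads, divided by a size factor, that were whole for 100% of values within 0.01. Of 19431 rows, 32 name no gene (0.101% to 0.167% of reads per library) and were dropped; where a symbol was repeated (86 symbols), its most abundant row was used.

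All 19129 genes were fitted with limma 3.58.1 in R 4.3.3 (empirical Bayes with a trend, two-sided, no covariate); p-values were adjusted by Benjamini-Hochberg across the whole table, and 0.05 was the threshold. The fit was tested on simulated data. Intervals are 95% intervals from limma. Coordinates and merged exon lengths are from GENCODE for GRCm38, counted from 1. The genes and lists were chosen with earlier results of these data known. Besides the 10 genes, Dusp6 and markers, the text names the gene with the smallest p of a list, the called gene and the 3 genes most correlated with a gene among those above the median mean. Neighbours, single list genes given beside them (Rb1, Bmi1 and the other Polycomb genes, Epcam, Krt8) and gene pairs were chosen after values were seen. Same-numbered control and MEKi libraries did not deviate together. The alternatives are given in the closing section. Figures were drawn with matplotlib 3.10.9.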

Additional observations from a re-analysis of the deposited data

Results flagged for a closer look

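Dixon's gap criterion for groups of 4 libraries was applied to 62 groups, of which it marks about 1 in 20 by chance; it marked 3, and 0 of the 20 groups of the 10 genes. Mtap in MEKi 4 (10.87) lay far below the other MEKi libraries, as described beside Cdkn2a. Skp2 was also lowest in MEKi 4 (9.22, the other MEKi libraries 9.58 to 9.61). Epha4 was high in control 1 (9.69, the other control libraries 9.19 to 9.25). The gap of MEKi 4 was 0.827 of the range for Cdk6 and 0.8285 for Cdkn2a, just under the critical value. No cause was tested.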

How the results depend on the processing

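Limma called 0 of the 10 genes and 0 genes of their lists in every alternative run. The count over all genes, 1 as reported, was 0 with the 75% of genes of highest mean, with the acinar marker mean as a covariate, with Dusp6 as a covariate, with the replicate number as a block, and without MEKi 3 and MEKi 4 (an alternative chosen after seeing the data); leaving out single libraries gave 0 to 2. The replicate block changed no other call; the correlations of deviations between same-numbered libraries were -0.33, 0.20, -0.46 and 0.02. Differences near 0 changed sign. For Cdk4 the difference was 0.0032 with quantile normalization, 0.0038 with Dusp6 as a covariate and 0.11 without MEKi 3 and MEKi 4. For Ccnd3 it was -0.073 with the acinar covariate. Without MEKi 3 and MEKi 4 it was 0.087 for Ccnd1, -0.00070 for Ccnd2, -0.078 for Ccnd3, -0.056 for Cdkn1b, 0.12 for Cdkn2a, 0.12 for Cdkn2b and -0.22 for Dusp6. Leaving out single libraries gave differences of -0.13 to 0.030 for Ccnd1, -0.024 to 0.12 for Ccnd2, -0.13 to 0.10 for Ccnd3, -0.053 to 0.052 for Cdk4, -0.93 to -0.19 for Cdk6, -0.46 to -0.15 for Cdkn1a, 0.0068 to 0.24 for Cdkn1c, -0.064 to 0.10 for Cdkn1b, -0.69 to 0.033 for Cdkn2a, -0.36 to 0.11 for Cdkn2b and -0.16 to 1.06 for Dusp6. The median deviation of the Cdkn2a neighbours in MEKi 4 was -1.05 within 1 Mb and 0.030 within 5 Mb, windows also chosen after seeing the data. With the acinar covariate the difference was -0.18 for Ccnd1, 0.011 for Ccnd2, -0.060 for Cdk4, -0.97 for Cdk6, 0.078 for Cdkn1b, 0.20 for Cdkn1c, -0.78 for Cdkn2a, -0.49 for Cdkn2b and 0.028 for Dusp6. The cause of these shifts was not tested beyond the libraries left out. With 4 libraries per label the intervals are wide beside most of the differences, and Cdkn1c is limited by its few reads.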
